A study of Homo sapiens with 13 samples.

Results

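H146 is an established small cell lung cancer (SCLC) line of neuroendocrine type that grows in suspension. Its response to FHD-286, an inhibitor of the ATPase activity of SMARCA2 and SMARCA4, was read from 7 of the 13 RNA-seq libraries of the series. Of these, 4 libraries came from wild-type H146 cells kept with 100 nM FHD-286 for 14 days and 3 from wild-type H146 cells labelled as having no treatment. The remaining 6 libraries came from H82, a second SCLC line, with 3 libraries in each arm. Members were chosen by their labels alone, as every H146 library, and the comparison covered 19585 of 56831 listed genes, those with at least 1 TPM in at least 3 of the 7 libraries. TPM is transcript abundance corrected for length and scaled to a total of 1000000 in each library. The labels do not say whether the libraries of a group came from separate cultures, so the p-values measure the spread between these libraries, which may be technical, and they do not state a vehicle for the untreated cells.

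SMARCA4 and SMARCA2 are the alternative motors of SWI/SNF (BAF) complexes, which use ATP to slide or evict nucleosomes and so keep enhancers and promoters open. Neuroendocrine SCLC cells carry secretory granules, ion channels and synaptic vesicle proteins much like those of neurons. INSM1, a zinc finger repressor of the neuroendocrine lineage, and FOXA2, a forkhead factor of foregut epithelium, mark cells of this kind.

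Those markers were high in every library, as the label of the line requires. *INSM1* (ENSG00000173404.5) was at 1140, 1405 and 1144 TPM in the untreated libraries and at 900, 1018, 758 and 804 TPM in treated replicates 1 to 4. The groups did not overlap, and the fall of 0.50 on the log2(TPM + 1) scale (SE 0.15) passed the test (limma adjusted *p* = 0.022). *FOXA2* (ENSG00000125798.15) was at 562, 630 and 585 TPM without the drug and at 387, 549, 316 and 309 TPM with it, a fall of 0.64 (SE 0.20, adjusted *p* = 0.029). Both calls were lost under quantile normalization (adjusted *p* = 0.13 and 0.062). The *INSM1* call was also lost without untreated replicate 2 (adjusted *p* = 0.097), treated replicate 3 (0.061) or treated replicate 4 (0.051), and the *FOXA2* call without any single library other than treated replicate 2 (adjusted *p* from 0.055 to 0.093). *NEUROD1*, the factor of another SCLC subtype, stayed between 0.129 and 0.521 TPM in the 7 libraries (exact two-sided permutation test, *p* = 0.51, where the smallest possible value is 0.057). *POU2F3*, the factor of the tuft cell-like subtype, did not exceed 0.0301 TPM.

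The transcripts of the drug's own targets moved in opposite directions. *SMARCA4* (ENSG00000127616.22) rose from 99.5, 109 and 89.5 TPM to 158, 157, 174 and 172 TPM, a log2 difference of 0.73 (SE 0.11, adjusted *p* = 0.0012). *SMARCA2* (ENSG00000080503.25) fell from 15.2, 14.9 and 11.7 TPM to 7.70, 9.14, 8.16 and 7.63 TPM, a log2 difference of -0.70 (SE 0.15, adjusted *p* = 0.0060). Neither gene had a treated library within the untreated range. FHD-286 acts on the proteins, so these levels are not a check of the inhibition.

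Across all genes tested, 6356 were higher (32.5%) and 3033 were lower (15.5%) with FHD-286 at an adjusted *p* below 0.05. TPM values add up to the same total in each library, so these counts depend on how libraries are put on one scale. The median gene was 0.25 higher on the log2 scale in treated cells. Rescaling by the median of ratios moved that median to -0.02, and then 4165 genes were higher (21.3%) and 4917 lower (25.1%). The 3033 lower genes were all called lower again, and 4165 of the 6356 higher genes were called higher again. Group statements are therefore given with both scalings, and their counts are to be read beside these shares over all genes. For 52.9% of the genes tested the treated and untreated libraries did not overlap in TPM. Between 17476 and 17965 genes reached 1 TPM in the untreated libraries, against 18778 to 19309 in the treated ones. The number of reads behind each value is not held in the table.

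**Figure D1:**
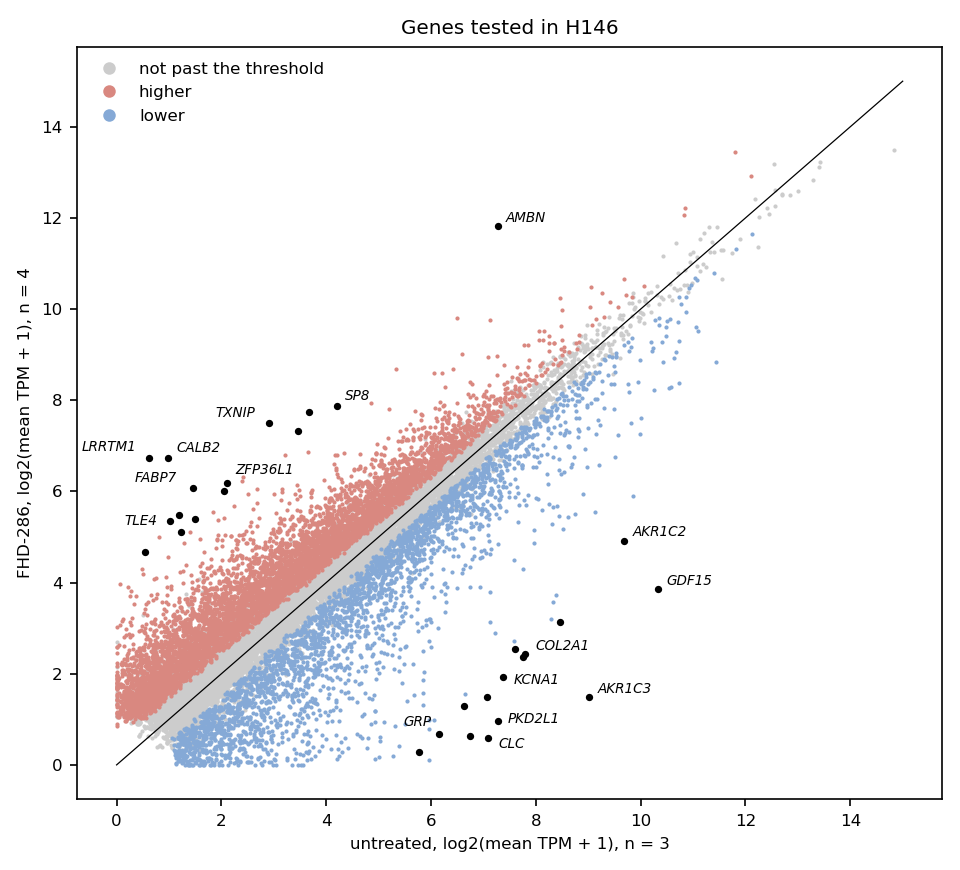
Mean expression of the 19585 genes tested, untreated (x axis) against FHD-286 (y axis), both as log2(mean TPM + 1). Coloured points passed an adjusted p of 0.05, black points are the 15 largest rises and 15 largest falls, and the line marks equal values; AMBN lies highest among the rises and GDF15 and AKR1C2 farthest to the right among the falls.

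The largest fall of any named gene was that of *AKR1C3*, and its neighbours *AKR1C1* and *AKR1C2* fell with it. These genes encode aldo-keto reductases that reduce steroid hormones, prostaglandins and reactive aldehydes, and they lie side by side on chromosome 10 (GRCh38, chr10:4963253-4983283 for *AKR1C1*, chr10:4987775-5018031 for *AKR1C2* and chr10:5035354-5107686 for *AKR1C3*). The 150 bases upstream of each annotated start (RefSeq, GRCh38.p14, written in the direction of the gene) are shown because the members share them closely. Capitals mark the longest run of bases common to all 4 stretches, of which *AKR1C1* is chr10:4963265-4963414 on the plus strand, *AKR1C2* is chr10:5003858-5004007 on the minus strand, and the 2 starts of *AKR1C3* are chr10:5048631-5048780 and chr10:5094264-5094413 on the plus strand.
AKR1C1: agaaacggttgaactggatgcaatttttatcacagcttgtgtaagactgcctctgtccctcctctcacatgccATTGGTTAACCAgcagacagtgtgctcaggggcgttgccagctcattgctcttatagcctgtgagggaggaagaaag
AKR1C2: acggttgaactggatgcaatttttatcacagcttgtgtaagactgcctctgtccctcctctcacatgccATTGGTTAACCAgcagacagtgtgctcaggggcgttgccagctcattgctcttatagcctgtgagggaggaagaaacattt
AKR1C3, first start: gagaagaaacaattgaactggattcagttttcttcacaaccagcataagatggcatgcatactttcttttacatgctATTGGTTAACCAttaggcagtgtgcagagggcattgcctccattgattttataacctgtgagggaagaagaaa
AKR1C3, second start: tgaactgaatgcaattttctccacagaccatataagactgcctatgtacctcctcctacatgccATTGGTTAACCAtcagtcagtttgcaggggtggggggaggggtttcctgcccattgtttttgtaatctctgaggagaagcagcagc

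Over the 250 bases upstream, *AKR1C1* and *AKR1C2* were identical at 245 of 246 aligned bases, and the *AKR1C3* starts matched them at 76.8% to 79.5% of aligned bases. The capitalised run occurs, on either strand, upstream of 5 of 35116 starts in the reference set, of which 4 are those printed. Reads of such close copies can be split between them in counting, so the levels of *AKR1C1* and *AKR1C2* are uncertain relative to each other.

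*AKR1C3* was at 544, 503 and 509 TPM in untreated cells and at 2.30, 3.69, 0.781 and 0.508 TPM in treated replicates 1 to 4. The mean fell 285-fold, and the log2 difference was -7.68 (SE 0.36, adjusted *p* = 4.7e-06). *AKR1C2* was at 816, 947 and 699 TPM untreated and at 31.3, 69.5, 7.70 and 8.58 TPM treated (log2 difference -5.29, SE 0.67, adjusted *p* = 0.00050). For *AKR1C1* the untreated values were 311, 352 and 295 TPM and the treated values 9.01, 27.6, 3.67 and 3.43 TPM (log2 difference -5.19, SE 0.58, adjusted *p* = 0.00028). Every treated library lay far below every untreated one for the 3 genes, and replicates 3 and 4 lay below replicates 1 and 2. The nearby *AKR1C4* and *AKR1E2* did not exceed 0.504 and 0.0909 TPM in any library, so a fall there could not have been seen. Elsewhere in the family, the aldehyde reductase *AKR7A2* rose from 43.1, 47.7 and 46.7 TPM to 63.4, 69.6, 89.3 and 93.0 TPM (log2 difference 0.75, SE 0.16, adjusted *p* = 0.0051). The potassium channel β subunit *KCNAB1*, whose fold is that of an aldo-keto reductase, fell from a low level, at most 2.59 TPM (-0.50, adjusted *p* = 0.048), a call lost without any library other than untreated replicate 3 or treated replicate 2 (adjusted *p* from 0.086 to 0.17). *AKR1A1* (80.6 to 105 TPM), *AKR1B1* (74.6 to 106 TPM), *AKR7A3*, *AKR7L*, *KCNAB2* and *KCNAB3* did not pass the test, and *AKR1B10*, *AKR1B15* and *AKR1D1* did not exceed 0.185 TPM.

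AKR1C enzymes are textbook targets of NRF2, the factor that switches on antioxidant genes. Of 31 NRF2 targets tested, 10 rose, 5 fell and 16 did not pass, shares close to the 32.5% and 15.5% over all genes. *NQO1*, the quinone reductase, rose from 41.1, 44.3 and 42.4 TPM to 122, 121, 144 and 157 TPM (log2 difference 1.65, adjusted *p* = 4.7e-05). *UGDH* (1.60) and the thioredoxin reductase *TXNRD1* (1.47) rose as well. The drug exporter *ABCC3* (-1.84) and the epoxide hydrolase *EPHX1* (-1.53) fell. Under the median of ratios the list held 6 higher and 13 lower genes.

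Genes of secreted stress hormones were also among the large falls. The integrated stress response slows translation when eIF2α is phosphorylated and raises ATF4, which turns on genes for amino acid supply and for hormones such as GDF15 and FGF21. Of 31 genes of this response tested, 20 fell, 3 rose and 8 did not pass (23 and 1 under the median of ratios), with a median difference of -1.29 from that of all genes on the log2 scale. By comparison, 15.5% of all genes fell and 32.5% rose (25.1% and 21.3%). The summed level of the list went from 9163, 8935 and 9643 TPM to 3074, 4838, 2946 and 2972 TPM. *GDF15* (ENSG00000130513.7, chr19:18374731-18389176), a stress hormone of the TGF-β superfamily, was among the more abundant transcripts of untreated cells at 1152, 1187 and 1544 TPM, and stood at 9.11, 30.7, 7.81 and 6.09 TPM in treated ones (log2 difference -6.75, SE 0.46, adjusted *p* = 2.5e-05). *FGF21*, a hormone of fasting and stress, fell from 28.4, 30.2 and 36.5 TPM to 0.251, 0.729, 0.245 and 0.533 TPM (-4.51, SE 0.19, adjusted *p* = 2.9e-06). *INHBE*, the activin βE subunit, which is not on this list, fell from 198, 245 and 203 TPM to 5.50, 5.79, 2.77 and 2.69 TPM (-5.44, SE 0.25, adjusted *p* = 4.2e-06).

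Transcription factors of the same response fell less, and treated replicate 2 stood above the other treated libraries for them. *ATF3* was at 369, 316 and 335 TPM untreated and at 27.8, 106, 35.1 and 32.7 TPM treated (-2.95, adjusted *p* = 0.00074). *DDIT3*, which encodes CHOP, was at 453, 380 and 383 TPM untreated and at 42.9, 264, 30.8 and 27.6 TPM treated (-2.83, SE 0.69, adjusted *p* = 0.010). The risers were the amino acid-sensing kinase *EIF2AK4* (GCN2, 1.56, adjusted *p* = 8.4e-05) and the amino acid transporters *SLC7A5* (0.57) and *SLC7A1* (0.36). These transporters did not pass under the median of ratios, nor without untreated replicate 1, untreated replicate 3 or treated replicate 1. The *SLC7A1* call was also lost without treated replicate 3 (adjusted *p* = 0.10) or treated replicate 4 (0.094).

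ATF4 binds C/EBP-ATF elements, and the core TTGCATCA was therefore looked for, on both strands, in the 250 bases upstream of RefSeq starts. It was found at 3 of the 37 starts that the reference set holds for 25 list members (8.11%), and at 0.772% of all 35116 starts. The stretches are printed for a member that fell and a member that did not, with the element in capitals (GRCh38.p14, plus strand, chr19:48755440-48755507 for *FGF21* and chr15:40953232-40953299 for *CHAC1*).
FGF21: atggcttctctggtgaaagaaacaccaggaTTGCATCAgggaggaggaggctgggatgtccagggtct
CHAC1: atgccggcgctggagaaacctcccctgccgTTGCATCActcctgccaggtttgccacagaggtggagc

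*CHAC1*, which degrades glutathione, was at 31.7, 55.7 and 30.03 TPM without the drug and at 58.2, 83.1, 50.2 and 53.9 TPM with it, and the groups overlapped (log2 difference 0.66, SE 0.25, adjusted *p* = 0.055). *CEBPG*, the remaining holder of the element, fell from 306, 254 and 258 TPM to 93.4, 174, 82.6 and 90.0 TPM (-1.36, adjusted *p* = 0.0027). Of the 3 members with these letters upstream, 2 fell and 1 did not pass the test.

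The galectins, small lectins that bind β-galactosides, were the list with the lowest median among those with at least 10 tested members, at -1.76 from that of all genes on the log2 scale. Of 10 tested members, 8 fell and none rose (9 and 0 under the median of ratios), against 15.5% lower over all genes (25.1%). The 10 include the galectin-binding protein *LGALS3BP*, which is no galectin itself and without which the list would not reach 10. *CLC* (galectin-10, chr19:39731255-39738029) went from 138, 128 and 140 TPM to 0.865, 0.838, 0.169 and 0.158 TPM (-6.54, SE 0.22, adjusted *p* = 1.1e-06). *LGALS14* (chr19:39704481-39709444), its neighbour, went from 98.9, 105 and 114 TPM to 0.916, 0.987, 0 and 0.278 TPM (-6.17, SE 0.25, adjusted *p* = 2.9e-06). For either gene no treated library reached 1 TPM, while the lowest untreated value was 98.9 TPM. *LGALS13*, in the same cluster, was low throughout, from 2.16 to 4.07 TPM untreated to at most 1.39 TPM treated (-1.34, adjusted *p* = 0.011), with the call lost without untreated replicate 3 (adjusted *p* = 0.053), and *LGALS16* did not exceed 0.426 TPM. Reads can be shared between these similar copies.

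Outside the cluster no member fell as far as *CLC* or *LGALS14*. *LGALS3*, the galectin of macrophages and epithelia, was at 19.2, 22.6 and 22.1 TPM untreated and at 1.70, 2.27, 5.19 and 5.64 TPM treated (-2.35, adjusted *p* = 0.00077). The galectin-binding glycoprotein *LGALS3BP* fell from 116, 149 and 119 TPM to 35.5, 41.2, 13.05 and 11.9 TPM (-2.48, adjusted *p* = 0.0021). *LGALS7B* (-1.68), *LGALS8* (-0.99) and *LGALS9* (-0.85) also fell, the last not past the test without any 1 of the untreated libraries (adjusted *p* = 0.053 to 0.054). *LGALS1* (9.69 to 18.9 TPM) and *LGALSL* (14.7 to 21.9 TPM) did not pass the test. *LGALS2*, *LGALS4*, *LGALS7*, *LGALS9B*, *LGALS9C* and *LGALS12* were below the filter, with no value above 1.17 TPM.

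A pair of ion channel genes and a peptide gene were also among the 15 largest falls. *PKD2L1* (chr10:100288149-100330264), a polycystin cation channel of acid-sensing and cerebrospinal fluid-contacting cells, fell from 172, 159 and 129 TPM to 1.72, 1.77, 0.245 and 0.0980 TPM (-6.42, SE 0.36, adjusted *p* = 9.2e-06). Its partner-type polycystins *PKD1L3* (-1.90) and *PKD1L2* (-1.64) fell from low levels, at most 3.82 TPM. *PKD1* fell from 155, 153 and 115 TPM to 78.6, 109, 43.7 and 33.6 TPM (-1.21, adjusted *p* = 0.026), a call lost without any 1 of the untreated libraries or treated replicate 3 (adjusted *p* from 0.055 to 0.084). *PKD2* was the member that rose, from 3.44, 3.52 and 2.64 TPM to 5.28, 5.66, 7.32 and 8.63 TPM (0.86, adjusted *p* = 0.0083). *PKD1L1* and *PKD2L2* did not exceed 1.02 and 0.165 TPM.

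The voltage-gated potassium channel *KCNA1* (Kv1.1) went from 184, 183 and 128 TPM to 2.67, 5.65, 1.37 and 1.44 TPM (-5.57, SE 0.35, adjusted *p* = 1.8e-05). Among 61 tested potassium channel genes, auxiliary subunits included, 25 fell and 15 rose (27 and 10 under the median of ratios), with a median at -0.67 from that of all genes. The silent subunit *KCNF1* (-4.19) and the two-pore-domain channel *KCNK16* (-3.33) followed *KCNA1*. *KCND2* (1.73) and *KCNK15* (1.61) were among those that rose. Among 20 calcium and sodium channel genes 6 fell and 4 rose (8 and 2 under the median of ratios). For comparison, 15.5% of all genes fell and 32.5% rose (25.1% and 21.3%). *CACNA1A* (-2.05), the P/Q-type calcium channel of nerve endings, fell most.

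*GRP* (ENSG00000134443.10), the bombesin-like peptide long used as an SCLC product, fell from 69.0, 67.9 and 73.5 TPM to 0.258, 1.13, 0.378 and 0.588 TPM (-5.51, SE 0.20, adjusted *p* = 1.8e-06). Of 24 neuropeptide and hormone genes, 7 fell and 10 rose (10 and 6 under the median of ratios). Among all genes 15.5% fell and 32.5% rose (25.1% and 21.3%). The summed level of the list rose, from 5994, 7751 and 6911 TPM untreated to 16174, 11095, 9621 and 11033 TPM treated. Genes are named here by log2 difference, so abundant members that gained in TPM may not be named. *NPY* fell from 10.3, 9.06 and 8.44 TPM to below 1 TPM in every treated library (-2.74, adjusted *p* = 3.1e-05). *GHRH*, the growth hormone-releasing hormone, fell from 2373, 2927 and 2991 TPM to 581, 537, 348 and 356 TPM (-2.63, adjusted *p* = 6.3e-05). The peptides that rose most on the log2 scale were *CARTPT*, *VIP* and *SST*. *CARTPT* went from at most 3.17 TPM to 43.0, 37.8, 10.4 and 12.5 TPM (2.62, adjusted *p* = 0.0030), *VIP* from at most 0.165 TPM to 3.75, 3.43, 8.6 and 8.28 TPM (2.59, adjusted *p* = 0.00041), and *SST* reached 10.8, 4.48, 1.39 and 0.486 TPM (1.77, adjusted *p* = 0.045). The *SST* call was lost under the median of ratios (adjusted *p* = 0.060) and without any single library other than treated replicates 3 and 4 (adjusted *p* from 0.062 to 0.12).

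The release apparatus behind these peptides gave a mixed picture with more falls. The counts here stand beside all genes, of which 15.5% fell and 32.5% rose (25.1% and 21.3% under the median of ratios). Of 33 synaptic vesicle and exocytosis genes, 14 fell, 5 rose and 14 did not pass (17 and 1 under the median of ratios). Synapsin 3 (*SYN3*, -3.59) and the vesicular monoamine transporters *SLC18A1* (-3.27) and *SLC18A2* (-3.18) fell most. *SLC18A2*, which loads monoamines into vesicles, went from 28.6, 28.8 and 20.01 TPM to 2.73, 2.47, 1.19 and 1.57 TPM. The calcium sensor *SYT4* rose from 122, 121 and 99.8 TPM to 314, 261, 235 and 238 TPM (1.19, adjusted *p* = 0.00036). Of 15 granin and prohormone-processing genes 5 fell and 3 rose (6 and 3 under the median of ratios). The prohormone convertase *PCSK2* fell (-2.64) and the granule protein *CHGB* rose (1.63). Of 22 neuroendocrine transcription factor genes 7 fell and 8 rose (10 and 5 under the median of ratios), with *LMO1* (-1.51), *MYT1* (-1.19) and *PROX1* (-1.18) at the low end and *SOX4* (2.28), *POU4F1* (1.47) and *FOXA1* (1.43) at the high end.

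Further genes among the 15 largest falls have no family in common. *GNG8*, a G protein γ subunit, fell from 314, 335 and 410 TPM to 8.14, 14.3, 5.46 and 3.24 TPM (-5.48, SE 0.38). *HABP2*, a hyaluronan-binding plasma protease, fell from 60.04, 58.2 and 41.5 TPM to at most 0.300 TPM (-5.46, SE 0.18). *PPP1R1B*, which encodes the dopamine-regulated phosphatase inhibitor DARPP-32, fell from 87.2, 101 and 107 TPM to 1.81, 2.20, 0.871 and 0.857 TPM (-5.39, SE 0.23). *COL2A1*, the collagen of cartilage, fell from 198, 278 and 190 TPM to 4.06, 4.31, 5.25 and 3.91 TPM (-5.36, SE 0.17). The antisense transcript *GPC5-AS1* (-5.23, SE 0.44) and the small RNA entry RF00096 (-5.78, SE 0.51) complete the set. Whether reads were counted by strand is not given in the sources used here, so reads of an antisense gene and its partner cannot be told apart. A single clone-named entry fell as far and is not named.

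**Figure D2:**
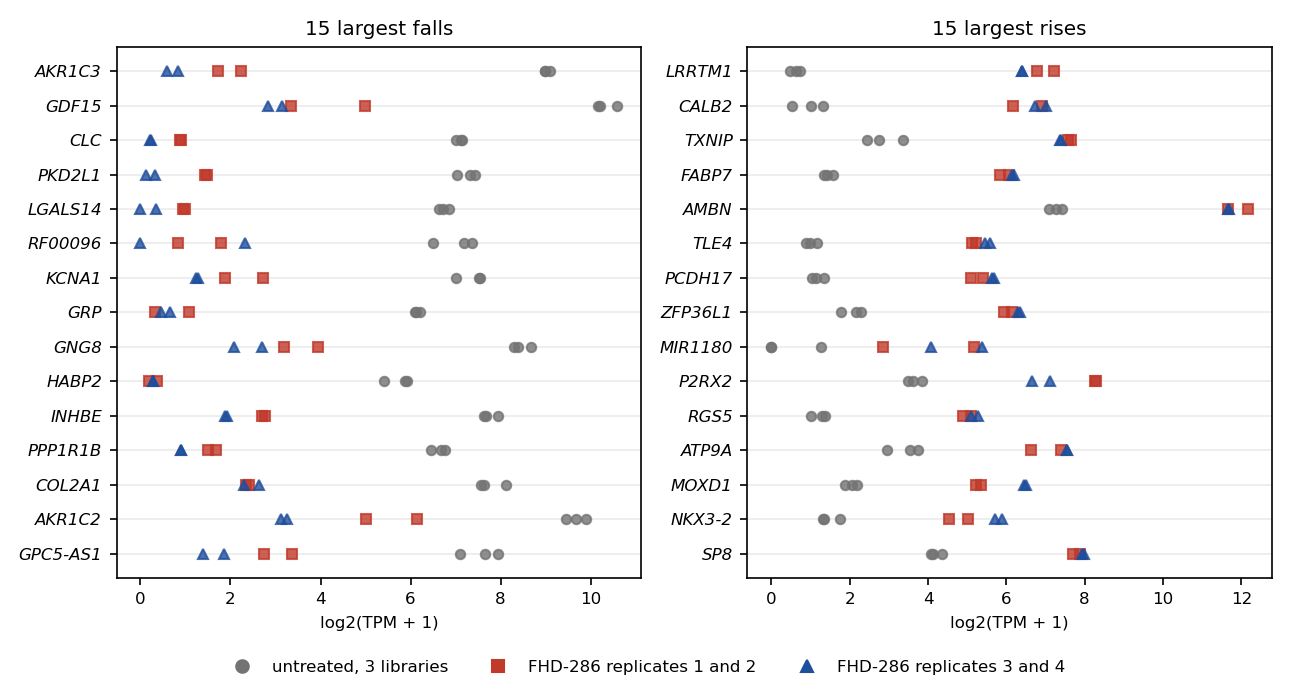
Expression as log2(TPM + 1) of the 15 largest falls (left) and 15 largest rises (right) in each of the 7 H146 libraries, 1 point per library. Untreated libraries are grey circles, treated replicates 1 and 2 red squares, and treated replicates 3 and 4 blue triangles; treated and untreated points do not overlap for any gene, which was a condition of the choice.

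Epithelial genes fell more often than they rose. Of 36 epithelial adhesion and keratin genes, 18 fell and 6 rose (23 and 5 under the median of ratios), with a median at -0.68 from that of all genes. *KRT80* fell from 96.0, 126 and 74.8 TPM to 2.55, 1.79, 1.70 and 1.79 TPM (-5.06, SE 0.20, adjusted *p* = 2.8e-06). *KRT19*, a keratin of simple epithelia, was much more abundant, at 879, 880 and 1027 TPM untreated and 53.3, 62.2, 60.3 and 57.6 TPM treated (-3.97, SE 0.11, adjusted *p* = 1.1e-06). The tight junction protein *CLDN1* fell by 2.63 on the log2 scale. The plakophilin *PKP2* (1.34), the junction scaffold *TJP1* (1.31) and *CLDN6* (1.30) rose. In a list of 26 mesenchymal genes 8 fell and 7 rose (9 and 6 under the median of ratios), with *CD44* (-1.95) and *SNAI2* (-1.64) lowest and *ANXA1* (3.02) and *LOX* (2.83) highest. Both lists are to be read beside all genes, of which 15.5% fell and 32.5% rose (25.1% and 21.3%).

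Among the rises, the synaptic adhesion protein *LRRTM1* (ENSG00000162951.11, chr2:80288351-80304752) moved most. It was at 0.383, 0.666 and 0.537 TPM in untreated cells and at 149, 109, 84.0 and 82.8 TPM in treated ones, a 201-fold rise of the mean (log2 difference 6.09, SE 0.22, adjusted *p* = 1.8e-06). *CALB2* (chr16:71358713-71390436), which encodes the calcium buffer calretinin, rose from 1.02, 0.451 and 1.49 TPM to 119, 70.6, 106 and 127 TPM (5.75, SE 0.25, adjusted *p* = 3.5e-06). *FABP7*, the fatty acid-binding protein of radial glia, rose from 1.56, 1.97 and 1.70 TPM to 55.9, 66.0, 69.9 and 72.7 TPM (4.61, SE 0.14, adjusted *p* = 1.1e-06). *PCDH17*, a non-clustered protocadherin, rose from at most 1.54 TPM to between 33.6 and 50.1 TPM (4.29, SE 0.18). *P2RX2*, an ATP-gated cation channel, rose from 11.3, 10.3 and 13.4 TPM to 310, 304, 137 and 99.5 TPM (3.92, SE 0.39), with treated replicates 1 and 2 above 3 and 4. Each of these genes acts in neurons or glia.

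*AMBN* (chr4:70592256-70607288), which encodes ameloblastin, an enamel matrix protein, was already at 154, 171 and 135 TPM and reached 3250, 4626, 3262 and 3272 TPM (4.53, SE 0.16, adjusted *p* = 1.8e-06). In absolute TPM this was the largest gain of the 15, and treated replicate 2 stood above the rest. *MOXD1*, a copper monooxygenase related to dopamine β-hydroxylase, rose from 3.17, 3.59 and 2.67 TPM to 39.9, 36.6, 86.7 and 90.1 TPM (3.84, SE 0.34). *ATP9A*, a phospholipid flippase of endosomes, rose from 10.7, 12.5 and 6.79 TPM to 167, 98, 185 and 188 TPM (3.86, SE 0.27). *RGS5*, a brake on G protein signalling, rose from at most 1.58 TPM to between 28.8 and 37.9 TPM (3.87, SE 0.16).

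Regulators of transcription and of mRNA were among the risers too. *TLE4*, a Groucho-type corepressor, rose from 0.861, 1.23 and 0.992 TPM to 36.4, 33.6, 43.0 and 47.4 TPM (4.33, SE 0.16). *ZFP36L1*, which binds AU-rich elements and promotes mRNA decay, rose from 3.50, 3.90 and 2.44 TPM to 69.5, 60.2, 81.2 and 77.7 TPM (4.10, SE 0.17). The homeobox gene *NKX3-2* (3.82, SE 0.32) and the zinc finger gene *SP8* (3.68, SE 0.12) rose to between 22.3 and 58.4 TPM and between 206 and 252 TPM. *MIR1180* (3.95, SE 0.61) lay at 0, 1.39 and 0 TPM untreated and at 35.03, 6.17, 40.4 and 16.0 TPM treated. TPM of so short an entry rests on few reads, and reads of an overlapping transcript would count towards it. A further 5 clone-named entries rose as far and are not named.

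*TXNIP*, an α-arrestin that binds thioredoxin and curbs glucose uptake, rose from 5.75, 9.32 and 4.48 TPM to 189, 201, 168 and 164 TPM (4.64, SE 0.21, adjusted *p* = 3.8e-06). Its paralogue *ARRDC4* rose from 2.47, 3.42 and 2.49 TPM to 27.4, 25.4, 31.7 and 33.0 TPM (3.01, SE 0.16, adjusted *p* = 7.8e-06). Both genes are known targets of the glucose-sensing factors MondoA and ChREBP, which bind pairs of E boxes set 5 bases apart. Pairs of CACGNG boxes (N, any base) with 5 bases between them, each box on either strand, occurred in the 250 bases upstream of 23 of 35116 starts (0.0655%). A start of *TXNIP* was among them (GRCh38.p14, chr1:145996611-145996707, minus strand), shown with the boxes in capitals, and the *ARRDC4* start held no such pair in that window.
TXNIP: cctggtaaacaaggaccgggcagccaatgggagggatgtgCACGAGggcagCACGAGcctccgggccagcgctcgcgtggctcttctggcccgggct

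Of 26 genes of glycolysis and lactate transport, with these arrestins included, 13 rose and 3 fell (8 and 6 under the median of ratios). *PGAM1*, the phosphoglycerate mutase, rose from 122, 164 and 121 TPM to 459, 294, 599 and 622 TPM (1.81, adjusted *p* = 0.00090). The hexokinase gene *HK1* (-0.94) and the phosphofructokinase gene *PFKP* (-0.87) fell.

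In several large families more members rose than fell, as among all genes on the deposited scale. Over all genes tested 32.5% were higher and 15.5% lower, or 21.3% and 25.1% under the median of ratios. The clustered protocadherins, whose combinations give neurons a surface identity, had 21 of 23 tested members higher and 1 lower (17 and 1 under the median of ratios), with a median 0.65 above that of all genes. Their summed level was 70.4, 85.3 and 54.3 TPM untreated and 169, 169, 175 and 172 TPM treated. *PCDHAC1* rose from 6.06, 9.37 and 4.68 TPM to 25.9, 26.4, 28.5 and 26.8 TPM (1.90, adjusted *p* = 0.00021), followed by *PCDHB2* (1.68) and *PCDHB8* (1.38), and *PCDHGC4* fell (-1.09). Members of the α cluster share constant exons, as do those of the γ cluster, so reads can be split among them.

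Among HOX genes, which set position along the body axis, 13 of 24 were higher and 2 lower (12 and 5 under the median of ratios). *HOXA5* (2.02), *HOXA3* (1.99) and *HOXB8* (1.71) rose, and *HOXD9* (-1.30) and *HOXD8* (-0.81) fell, the latter not past the test without untreated replicate 3 (adjusted *p* = 0.082) or treated replicate 3 (0.051). Of 28 SWI/SNF subunit genes, 16 rose and 3 fell (12 and 5), while the summed level of the list was lower in treated libraries, at 5964, 5779 and 5647 TPM untreated and 4912, 4807, 5159 and 5400 TPM treated. The sum weights each member by its abundance, so it need not follow the number of members that rose. *BCL7C* (2.05), *BCL7A* (1.90) and *ARID1A* (1.65) rose most, and *SMARCA2*, *SMARCD2* (-0.54) and *ACTB* (-0.48) fell, the last not past the test without untreated replicate 1 (adjusted *p* = 0.059). *ARID1A*, the large subunit that defines canonical BAF, went from 22.7, 25.8 and 15.7 TPM to 59.5, 65.5, 74.5 and 73.2 TPM. Of 461 zinc finger genes with a ZNF symbol, most of them KRAB repressors of transposable elements, 240 were higher and 30 lower (148 and 61).

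Axon guidance and signalling lists held strong changes of single genes in either direction. Their counts are given beside shares over all genes of 32.5% higher and 15.5% lower, or 21.3% and 25.1% under the median of ratios. Of 59 axon guidance genes 26 rose and 12 fell (20 and 14). The ephrin receptor *EPHA5* (2.71) and *SEMA6A* (2.52) rose, and the netrin receptor *UNC5B* fell from 204, 261 and 183 TPM to 29.1, 33.4, 6.76 and 5.75 TPM (-3.81, adjusted *p* = 0.0012). Of 37 WNT pathway genes 14 rose and 9 fell (11 and 10). The ligand *WNT4* fell from 30.9, 27.8 and 36.0 TPM to at most 1.18 TPM (-4.46, adjusted *p* = 9.0e-06), as did the WNT deacylase *NOTUM* (-2.93), while *WNT5A* (2.16), *TCF7L2* (2.05) and *FZD4* (1.94) rose. Of 24 Notch pathway genes 6 rose and 5 fell, and the balance turned to 4 higher and 7 lower under the median of ratios. *HES6*, an inhibitor of HES1, fell from 875, 1078 and 1103 TPM to 147, 108, 173 and 177 TPM (-2.76, adjusted *p* = 2.5e-05). *HEY1* (1.87) and *HES1* (1.52) rose, the latter not past the test without untreated replicate 1 (adjusted *p* = 0.059) or 3 (0.071).

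Small nucleolar RNA host genes, spliced transcripts that carry snoRNAs in their introns, fell in 9 of 17 cases and rose in 2 (10 and 1), with a median at -1.12 from that of all genes. *SNHG12* went from 122, 97.4 and 145 TPM to 20.9, 29.2, 21.4 and 17.7 TPM (-2.40, adjusted *p* = 6.2e-05). Of 86 cytosolic ribosomal protein genes 23 fell and 4 rose, and 54 fell and 3 rose under the median of ratios. Of 16 MHC class I genes 6 fell and 2 rose (9 and 2), with *HLA-C* at 550, 563 and 632 TPM untreated and 202, 298, 130 and 119 TPM treated (-1.73, adjusted *p* = 0.0020). The summed level of the MHC class I list was 3634, 3618 and 4048 TPM untreated and 2869, 4927, 1781 and 1725 TPM treated. Treated replicate 2 thus lay above every untreated library in that sum. Of 38 mitosis genes 7 fell, 1 rose and 30 did not pass, and 23 fell under the median of ratios. Shares over all genes were 15.5% lower and 32.5% higher, or 25.1% and 21.3% under the median of ratios.

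**Figure D3:**
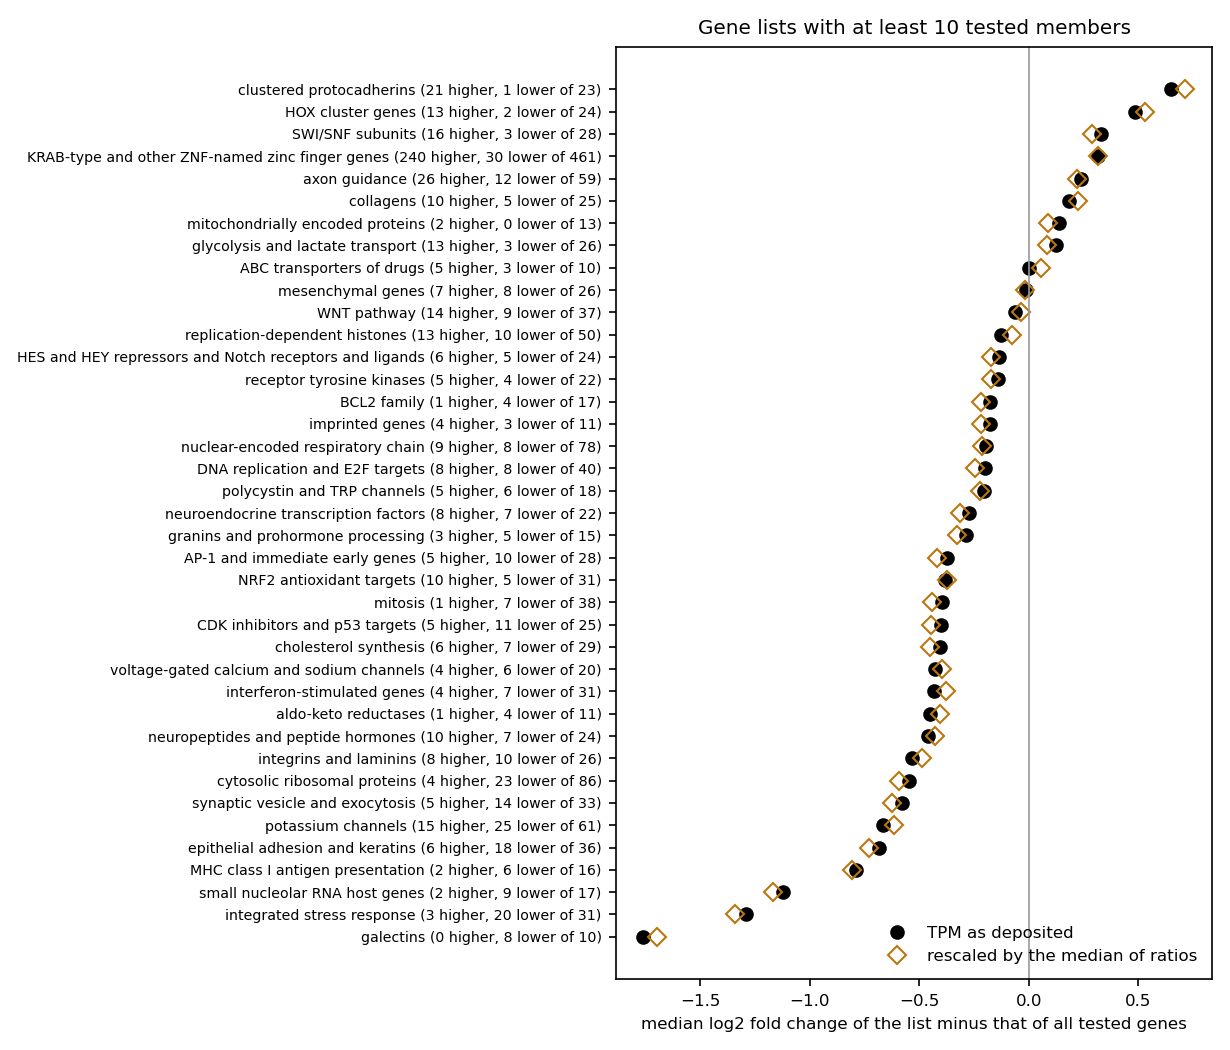
Median log2 fold change of each gene list with at least 10 tested members, given as the difference from the median of all genes tested (x axis), for the deposited TPM (black circles) and after rescaling by the median of ratios (open diamonds). Labels give the members higher and lower at an adjusted p below 0.05; galectins and the integrated stress response lie lowest and clustered protocadherins highest, and the scalings nearly coincide once each is set against its own median.

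Markers of other cell types were low. The summed level of 16 blood cell markers was 54.6 to 69.2 TPM untreated and 32.1 to 65.0 TPM treated, that of 14 fibroblast and endothelial markers 18.3 to 19.9 and 22.5 to 40.8 TPM, and that of 19 hepatocyte markers 44.5 to 69.2 and 40.7 to 173 TPM, most of it *TTR*. The T cell marker *CD3E* and the endothelial marker *CDH5* did not exceed 0.102 TPM, but other members of their lists were expressed. Over the 7 libraries the blood cell markers *PTPRC* and *CORO1A* lay at 3.29 to 6.75 TPM and 10.3 to 22.3 TPM. *ESAM*, of the fibroblast and endothelial list, lay at 3.71 to 8.58 TPM. Within these lists *COL3A1* (2.64) and *COL1A2* (1.501) rose and *HBA2* (-2.93) and *VWF* (-1.44) fell. Fewer cells with a transcript and less of it per cell cannot be told apart in bulk RNA.

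The treated libraries were not equally alike. Treated replicates 3 and 4 were the closest pair, with a median absolute difference of 0.12 on the log2(TPM + 1) scale over the genes tested and 485 genes more than 2-fold apart. Replicates 1 and 2 differed by 0.26, with 1212 genes more than 2-fold apart. Across the pairs, replicate 1 lay 0.30 and 0.33 from replicates 3 and 4, and replicate 2 lay 0.44 and 0.47 from them, with up to 3386 genes more than 2-fold apart. The untreated libraries lay 0.14 to 0.22 from each other. Every treated library was nearer to every other treated one than to the nearest untreated one except in the comparison of replicate 2, which lay 0.46 from untreated replicate 2 and 0.47 from treated replicate 4.

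The 4 libraries shared the direction of the large changes. All 15 falls and all 15 rises exceeded 2-fold in each of them, as the rule of choice favours. The median of the 15 falls was -5.44, -5.34, -6.11 and -6.37 on the log2 scale in treated replicates 1 to 4, and that of the 15 rises was 4.24, 3.93, 4.42 and 4.41. Over all genes the median absolute distance from the untreated mean was 0.55, 0.49, 0.65 and 0.65. Treated replicate 2 thus lay nearest to the untreated cells and replicates 3 and 4 farthest.

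Of the 19585 genes tested, 5220 had both values of treated replicates 1 and 2 above both of replicates 3 and 4. For 7831 genes the order was reversed, and 868 and 741 of these sets differed at least 2-fold. Any division of the treated libraries into pairs separates many genes by order alone, and no other division was counted. Since the genes below were picked for the split of replicates 1 and 2 from 3 and 4, their values are a description. The heat shock gene *HSPA6*, which is switched on by proteotoxic stress, was at 62.6, 52.2 and 58.4 TPM untreated, at 5.47 and 5.17 TPM in replicates 1 and 2, and at 321 and 234 TPM in replicates 3 and 4. The pairs thus lay on opposite sides of the untreated level. The immediate early gene *FOSB* was at 0.330 to 0.553 TPM untreated, 0.752 and 1.27 TPM in replicates 1 and 2, and 19.3 and 13.5 TPM in replicates 3 and 4. *GADD45B*, another stress-induced gene, was at 1.49 and 2.59 TPM against 22.8 and 15.6 TPM, and the mucin-like *FCGBP* at 1.10 and 1.20 TPM against 17.8 and 29.4 TPM. *ACTL8*, *SNORD116-1*, *MIR181B1*, *MIR3671*, *MIR6851* and the immunoglobulin pseudogene *IGHVII-46-1* complete the 10 on that side. Replicates 1 and 2 minus 3 and 4 gave -5.45 for *HSPA6*, -3.48 for *FCGBP* and -3.11 for *FOSB* on the log2 scale, and -2.99 to -2.59 for the other members.

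The 10 genes highest in replicates 1 and 2 were mostly short or non-polyadenylated RNAs. They were the mitochondrial ribosomal RNAs *MT-RNR1* and *MT-RNR2*, the spliceosomal and histone-processing RNA copies *RNU6-611P*, *RNU6-652P*, *RNU6-190P*, *RNU2-38P* and *RNU7-160P*, *SNORD59A*, *MIR3143* and the keratin-associated gene *KRTAP5-1*. *MT-RNR2* was at 31191, 24037 and 31867 TPM untreated, 14960 and 27678 TPM in replicates 1 and 2, and 2108 and 1387 TPM in replicates 3 and 4. The mitochondrial ribosomal RNAs made up 2.69% to 3.50% of TPM in the untreated libraries, 1.78% and 3.06% in treated replicates 1 and 2, and 0.257% and 0.171% in treated replicates 3 and 4. The part of library preparation or RNA quality in this split was not tested.

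**Figure D4:**
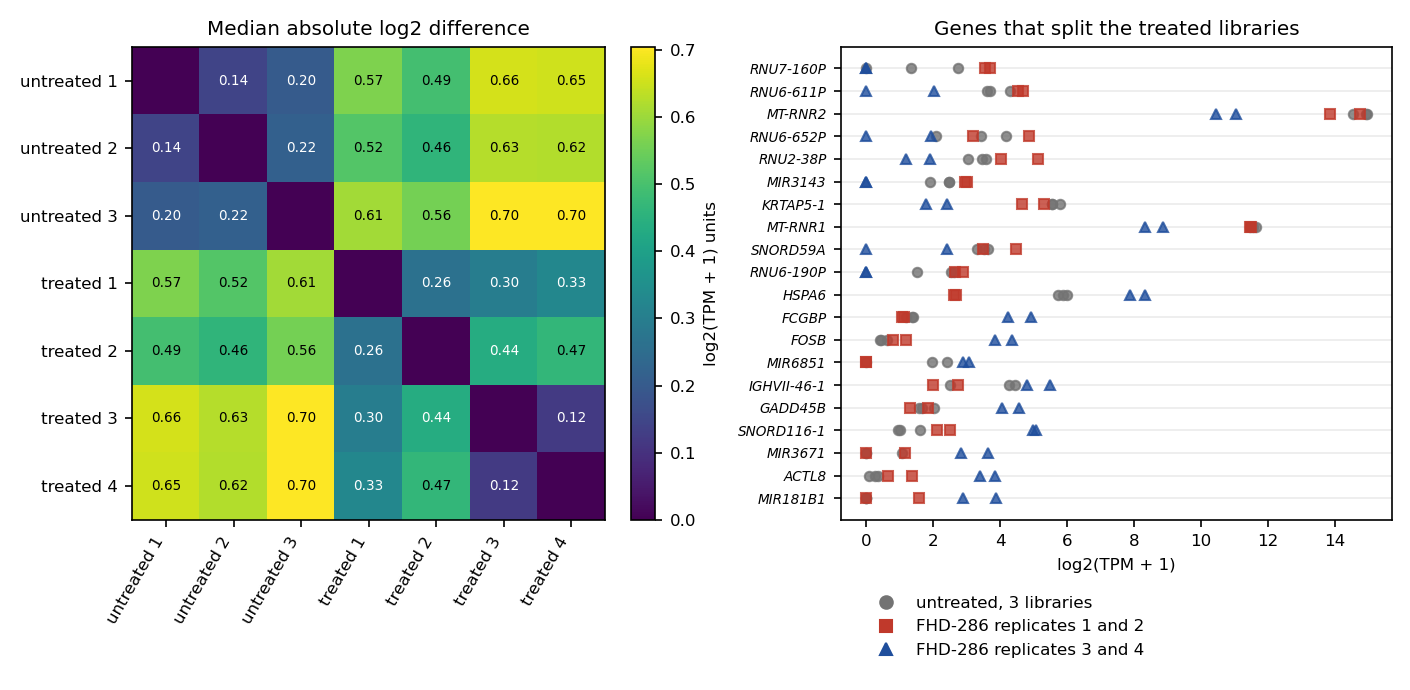
Left, the median absolute difference of log2(TPM + 1) between each pair of H146 libraries over the genes tested, lowest (0.12) between treated replicates 3 and 4. Right, log2(TPM + 1) in each library of the 20 genes with the largest separation of treated replicates 1 and 2 (red squares) from 3 and 4 (blue triangles), with untreated libraries as grey circles; HSPA6 has the widest gap.

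Fitted on the deposited scale against the same 3 untreated libraries, replicates 1 and 2 gave 5434 higher and 2975 lower of 19585 genes. Replicates 3 and 4, the closer pair (0.12 against 0.26 apart), gave 8441 higher and 4258 lower. More calls in a list with replicates 3 and 4 are therefore not by themselves a result about that list. Of 86 ribosomal protein genes 6 were lower with replicates 1 and 2 and 55 with replicates 3 and 4. For MHC class I the lower counts were 5 and 11 of 16. Higher counts were 158 and 311 of 461 for the zinc finger genes, 8 and 18 of 26 for glycolysis, 6 and 19 of 40 for DNA replication, and 3 and 10 of 28 for AP-1 and immediate early genes. Lower counts for the integrated stress response were 19 and 23 of 31, for galectins 7 and 8 of 10, and for epithelial genes 19 and 20 of 36. The difference between the pairs was not tested.

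The 5 largest falls and 5 largest rises of H146 were set beside H82, whose values come from a table of its own. These genes were picked for their change in H146, so the differences between the lines are a description. In a single fit over the 13 libraries the responses differed for 60.2% of the 23676 genes tested. *TXNIP* was lower in every treated H82 library than in any untreated one, going from 298, 333 and 310 TPM to 11.6, 152 and 120 TPM, and the log2 responses of H146 and H82 differed by 6.99 (SE 0.93). For *AMBN* the H82 means were 1.32 TPM without and 0.291 TPM with the drug, and the responses differed by 5.35 (SE 0.26). *AKR1C3*, *CLC*, *PKD2L1* and *LGALS14* were at or below 0.668 TPM in untreated H82, so that a fall could hardly be seen there. *GDF15* was at or below 1.86 TPM in untreated H82, too low for a fall as large as that in H146. *LRRTM1* stayed at 0.545 to 1.71 TPM in H82. *CALB2* and *FABP7* reached 2.61 and 13.7 TPM in treated H82 replicate 2, from at most 0.380 TPM untreated, and *GDF15* reached 11.2 TPM there.

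**Figure D5:**
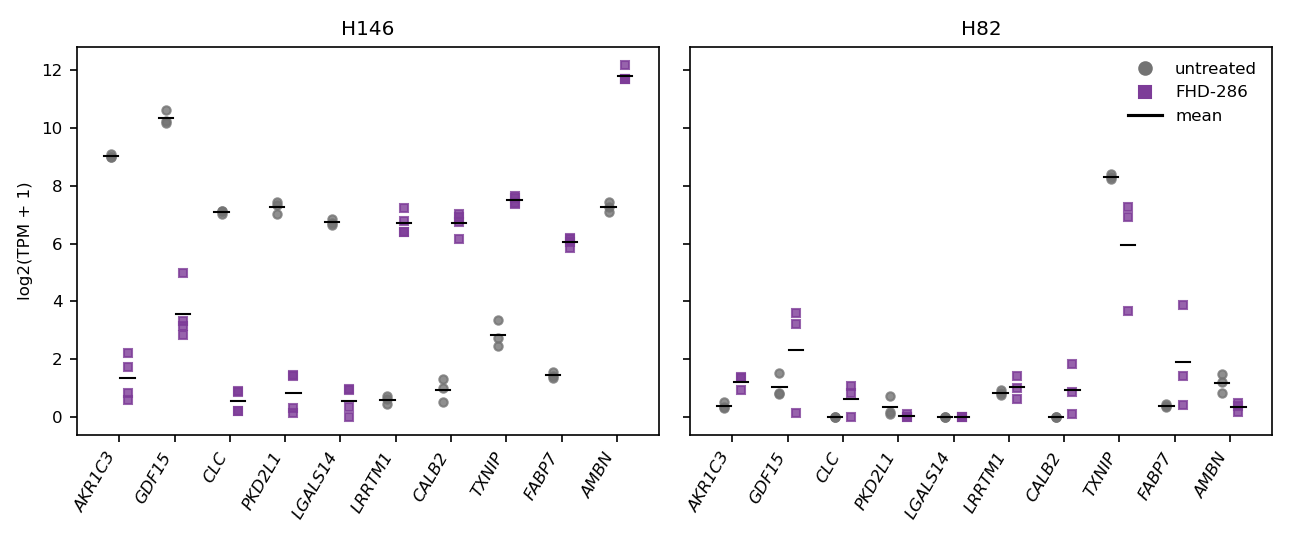
Expression as log2(TPM + 1) of the 5 largest falls and 5 largest rises of H146, shown for each library of H146 (left, 3 untreated and 4 treated) and H82 (right, 3 untreated and 3 treated). Points are libraries and bars are means of the plotted values; TXNIP lies higher in treated than untreated H146 libraries and lower in treated than untreated H82 libraries.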

How the data were processed

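The authors aligned reads to hg38 and counted genes with STAR and GENCODE release 28, and compared groups with DESeq2. The submitters' processing notes for these libraries also name Trim Galore 0.4.4. The deposited tables hold TPM made by the authors, fractional and summing to 1000000 per library. Read depth is unknown, so no counting interval was drawn. Dates stand in place of 29 gene symbols, and these were not named.

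Log2(TPM + 1) values of the 7 H146 libraries were fitted with limma 3.58.1 in R 4.3.3 (lmFit, eBayes with trend), treated against untreated, two-sided, with Benjamini-Hochberg adjustment over 19585 genes. The lines were compared by the interaction of line and treatment over 13 libraries. *NEUROD1* and *POU2F3*, below the filter, were given an exact permutation test (scipy 1.17.1). A difference means treated minus untreated log2(TPM + 1), which understates changes of low genes. Fits were tested on simulated data. Alternatives were other scalings, pseudocounts, filters, weights and left-out libraries.

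Genes named were the 15 largest rises and falls past the threshold without overlap of the groups, up to 3 rises and 3 falls of each list, members of their families, line markers, drug targets and the 10 genes each way that most separated the treated pairs, leaving out clone-named entries. *CHAC1* and *CEBPG* were added for their upstream sequence, and *TTR*, *CD3E*, *CDH5*, *PTPRC*, *CORO1A* and *ESAM* as cell type markers, after their values were seen. The members and lists were chosen with earlier results of these data known. Coordinates are from GENCODE release 44 and upstream sequences from RefSeq (GRCh38.p14). H82 values are given for 10 genes. Some results of the study are not reported here.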

Additional observations from a re-analysis of the deposited data

Results flagged for a closer look

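Among the 4 treated H146 libraries, *GDF15* was at 30.7 TPM in replicate 2, set apart from the other treated values by a gap that took up 0.877 of their range, and *AMBN* was at 4626 TPM in the same library, with a gap of 0.984 of the range. These were 2 of 39 sets of values examined, and chance alone gives such a gap in about 1 in 20 sets. Both genes passed the test without treated replicate 2.

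The response to FHD-286 differed between H146 and H82 for the 10 genes compared (interaction in limma). These genes were picked for their large change in H146, which favours a difference. *AKR1C3*, *CLC*, *LGALS14* and *PKD2L1* were at or below 0.668 TPM in untreated H82, where a fall could hardly show. *GDF15* was at or below 1.86 TPM there, too low for a fall as large as that in H146. The *p* values are therefore no independent evidence. H146 minus H82 on the log2 scale was -8.50 for *AKR1C3* (adjusted *p* = 1.4e-07), -8.04 for *GDF15* (adjusted *p* = 4.2e-05), -7.18 for *CLC* (adjusted *p* = 1.2e-07), -6.17 for *LGALS14* (adjusted *p* = 1.1e-07) and -6.12 for *PKD2L1* (adjusted *p* = 1.1e-06). It was 6.99 for *TXNIP* (adjusted *p* = 5.3e-05), 5.92 for *LRRTM1* (adjusted *p* = 1.8e-07), 5.35 for *AMBN* (adjusted *p* = 7.3e-08), 4.80 for *CALB2* (adjusted *p* = 1.1e-05) and 3.11 for *FABP7* (adjusted *p* = 0.0062).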

How the results depend on the processing

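The 30 largest changes kept their direction and stayed past the threshold under every alternative that was run. The counts moved more. Lower genes numbered 3033 as reported, 4917 under the median of ratios, 4806 with library weights and 1542 with a log2 fold change of at least 1, and higher genes numbered 6356, 4165 under the median of ratios and 2857 with a log2 fold change of at least 1. Under quantile normalization 4647 were higher and 4107 lower. With each library left out in turn, lower genes ranged from 2222 to 3741 and higher genes from 4404 to 7561, most without treated replicate 2. Of the 10 genes compared with H82, 10 differed in every alternative except a pseudocount of 0.1, where *FABP7* was lost and 9 remained. These genes were picked for their change in H146, which favours a difference, and the responses differed for 60.2% of all genes tested. This count is thus no independent evidence of a difference between the lines. Deviations of same-numbered libraries correlated at -0.11, -0.065 and 0.011, so no pairing by replicate number was seen. With so few libraries these values cannot exclude a pairing. With the replicate block, 4749 genes were higher and 2377 lower, and all 10 of the H82 comparison remained. The tables give no reads, so depth could not be weighed.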
